A study of Mus musculus with 8 samples.

Results

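The Fbxw, Pramel, Obox and Oog genes of the mouse were followed over 8 microarrays of ovarian RNA. They were taken by name: a probe belonged to them when its RefSeq accession mapped to a gene symbol that starts with Fbxw, Pramel, Obox or Oog and goes on with a number. The RefSeq table of GRCm38.p6 lists 128 such genes, of which 80 are protein-coding and 48 are pseudogenes. On the array, 57 of them were measured with 82 of its 55681 probes, against 37208 features in all. The families were chosen with earlier results of this comparison known, namely the difference between wildtype ovary and neoplasia, so their differences between these groups are given as a description and without a test.

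The wildtype group was 3 ovaries of wildtype mice. The neoplasia group was 5 ovarian neoplasms of mice whose genotype is written Pgrcre/+mPgrLsL/+ in the sample labels and Pgrcre/+PgrBLsL/+ in the design text, a cre allele at the progesterone receptor gene Pgr combined with a receptor allele marked LsL. All mice were 33 weeks old and cycling, and neither group is labelled with any other agent or allele. Cre is driven here by the Pgr locus, so the transgene is switched on in the cells in which that locus is active, or was active earlier, and the labels give neither the cell content of the neoplasms nor the day of the cycle.

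Fbxw genes encode proteins with an F-box, which docks on SKP1 and CUL1 in SCF ubiquitin ligases, and WD40 repeats, which bind the substrate. Pramel and Oog genes encode leucine-rich repeat proteins of the PRAME family, which is expanded in the mouse and best known from germ cells and early embryos, and PRAME proteins can act as substrate receptors of CUL2 ligases. Obox genes encode homeobox proteins of oocytes and early embryos, and in mouse embryos they take part in zygotic genome activation. Most of these genes lie in tandem arrays of near copies. A Fbxw gene was called clustered when another Fbxw gene lies within 500 kb, which holds for 15 genes in the reference, all on chromosome 9, and 12 of these were on the array with 14 probes. The other 9 Fbxw genes are called dispersed and had 13 probes. The Pramel genes on the array numbered 28 with 44 probes, the Obox genes 5 with 8 probes and the Oog genes 3 with 3 probes, which with the clustered Fbxw genes makes 48 cluster members.

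The promoters show what the near copies share and are printed for members that the values below turn on. Each is the RefSeq window of GRCm38.p6 from 250 bases before to 50 bases after the transcript start, read 5′ to 3′ on the gene's strand. Capitals mark copies of CAGCTG, an E-box (CANNTG) that reads the same on both strands. Fbxw15, Fbxw14 and Fbxw20 stand for the clustered Fbxw genes, Fbxw5 and Fbxw11 for the dispersed ones, and Oog3, Pramel29, Obox1 and Obox3 are members with large differences in the other families.
Fbxw15, chr9:109568213-109568512, minus strand: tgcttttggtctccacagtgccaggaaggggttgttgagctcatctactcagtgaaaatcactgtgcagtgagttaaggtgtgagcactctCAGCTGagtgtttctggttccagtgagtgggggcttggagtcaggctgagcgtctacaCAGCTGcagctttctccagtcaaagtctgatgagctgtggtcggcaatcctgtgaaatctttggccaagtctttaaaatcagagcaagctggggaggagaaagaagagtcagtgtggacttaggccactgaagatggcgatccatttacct
Fbxw14, chr9:109287627-109287926, minus strand: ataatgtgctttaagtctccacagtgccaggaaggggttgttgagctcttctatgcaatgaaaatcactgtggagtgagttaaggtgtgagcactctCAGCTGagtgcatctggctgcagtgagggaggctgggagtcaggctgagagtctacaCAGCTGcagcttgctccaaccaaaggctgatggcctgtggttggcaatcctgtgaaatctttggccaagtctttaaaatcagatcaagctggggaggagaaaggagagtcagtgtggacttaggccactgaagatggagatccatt
Fbxw20, chr9:109234705-109235004, minus strand: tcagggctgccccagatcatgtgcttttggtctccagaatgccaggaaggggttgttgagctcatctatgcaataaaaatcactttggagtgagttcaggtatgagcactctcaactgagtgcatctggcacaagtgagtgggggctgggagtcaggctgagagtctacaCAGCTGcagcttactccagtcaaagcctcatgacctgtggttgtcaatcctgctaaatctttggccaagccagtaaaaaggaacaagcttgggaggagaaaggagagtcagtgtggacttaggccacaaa
Fbxw5, chr2:25500500-25500799, plus strand: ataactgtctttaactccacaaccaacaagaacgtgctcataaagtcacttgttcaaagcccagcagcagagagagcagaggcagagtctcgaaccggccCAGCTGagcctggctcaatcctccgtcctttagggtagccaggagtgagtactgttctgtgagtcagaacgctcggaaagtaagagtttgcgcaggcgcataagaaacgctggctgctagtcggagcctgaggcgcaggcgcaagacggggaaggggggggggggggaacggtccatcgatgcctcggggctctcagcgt
Fbxw11, chr11:32642305-32642604, plus strand: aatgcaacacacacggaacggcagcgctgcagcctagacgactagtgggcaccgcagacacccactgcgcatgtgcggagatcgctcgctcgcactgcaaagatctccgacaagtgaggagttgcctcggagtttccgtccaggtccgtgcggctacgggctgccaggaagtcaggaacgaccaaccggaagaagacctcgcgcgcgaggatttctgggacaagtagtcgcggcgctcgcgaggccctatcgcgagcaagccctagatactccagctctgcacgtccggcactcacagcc
Oog3, chr4:144162602-144162901, minus strand: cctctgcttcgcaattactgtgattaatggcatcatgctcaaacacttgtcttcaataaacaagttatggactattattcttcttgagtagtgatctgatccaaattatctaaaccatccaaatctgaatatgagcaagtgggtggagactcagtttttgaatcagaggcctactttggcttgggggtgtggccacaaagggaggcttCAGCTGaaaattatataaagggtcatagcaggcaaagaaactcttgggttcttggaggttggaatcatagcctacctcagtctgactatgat
Pramel29, chr4:144212968-144213267, minus strand: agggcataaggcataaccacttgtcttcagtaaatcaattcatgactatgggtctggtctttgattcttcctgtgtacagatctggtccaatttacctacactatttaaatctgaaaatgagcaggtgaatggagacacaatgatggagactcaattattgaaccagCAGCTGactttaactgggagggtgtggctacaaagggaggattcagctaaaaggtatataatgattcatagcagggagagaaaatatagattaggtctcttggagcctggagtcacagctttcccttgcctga
Obox1, chr7:15547007-15547306, plus strand: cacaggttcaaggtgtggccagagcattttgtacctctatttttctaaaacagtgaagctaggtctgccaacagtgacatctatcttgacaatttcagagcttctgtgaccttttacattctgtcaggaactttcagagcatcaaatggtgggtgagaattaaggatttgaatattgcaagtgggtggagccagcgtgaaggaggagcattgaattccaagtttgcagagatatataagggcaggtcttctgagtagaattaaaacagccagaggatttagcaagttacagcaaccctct
Obox3, chr7:15639728-15640027, minus strand: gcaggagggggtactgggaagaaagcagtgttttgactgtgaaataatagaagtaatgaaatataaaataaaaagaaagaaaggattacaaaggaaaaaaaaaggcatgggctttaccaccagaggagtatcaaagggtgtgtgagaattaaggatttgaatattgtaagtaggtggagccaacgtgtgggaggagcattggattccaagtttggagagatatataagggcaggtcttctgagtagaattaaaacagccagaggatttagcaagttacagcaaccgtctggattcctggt

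The clustered Fbxw promoters were near copies of each other, and those of the dispersed Fbxw genes were not. Windows were found for 65 of the 128 genes, 69 windows in all, and 48 of these genes were on the array. Over 55 pairs of the 11 clustered Fbxw genes other than Fbxw23, the aligned windows were 84.7% to 97.7% identical, with a median of 91.3%. The 7 dispersed Fbxw genes with a window gave 54.0% to 64.9%, with a median of 58.8% over 21 pairs, and some of these aligned over as few as 50 columns, against 256 to 300 for the clustered genes. Fbxw23, which is not on the array, shared 55.9% to 66.7% with the other clustered genes, over 9 to 276 columns. A run of 12 bases, gacttaggccac, stood in the window of all 11 clustered genes other than Fbxw23 and in 0 windows of other genes. Obox windows had a median identity of 93.2% over 10 pairs and a lowest one of 64.4%, and Oog windows were 73.1% to 81.3% identical over 6 pairs. The identity of Pramel windows ran from 53.0% to 100%, with a median of 61.4% over 666 pairs. Some of these pairs aligned over as few as 4 columns.

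CAGCTG was in 12 of the 13 clustered Fbxw windows (92.3%), and 11 of the 13 held at least 2 copies (84.6%). Over all 32851 windows of 27025 genes the shares were 16.3% and 1.90%. The copies lay 80 to 183 bases before the start, and Fbxw20 had 1 copy, 80 bases before it. In all 4 Oog windows CAGCTG lay 19 to 43 bases before the start, it was in 14 of 37 Pramel windows (37.8%) and 2 of 10 dispersed Fbxw windows, and it was in 0 of 5 Obox windows. TAATTG, a homeobox-type core searched on both strands, was in 10 of 37 Pramel windows (27.0%), 2 of 4 Oog windows and 0 of 13 clustered Fbxw windows, against 2628 of all 32851 windows. The median number of CpG pairs was 1 in the clustered Fbxw, Pramel, Obox and Oog windows, 17 in the dispersed Fbxw windows and 7 in all windows. These matches describe the windows and are no evidence of a bound site. Where copies are this alike, as in the clustered Fbxw and Obox genes, a probe made for 1 of them may also measure others, which was not tested because probe sequences were not used here.

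**Figure D1:**
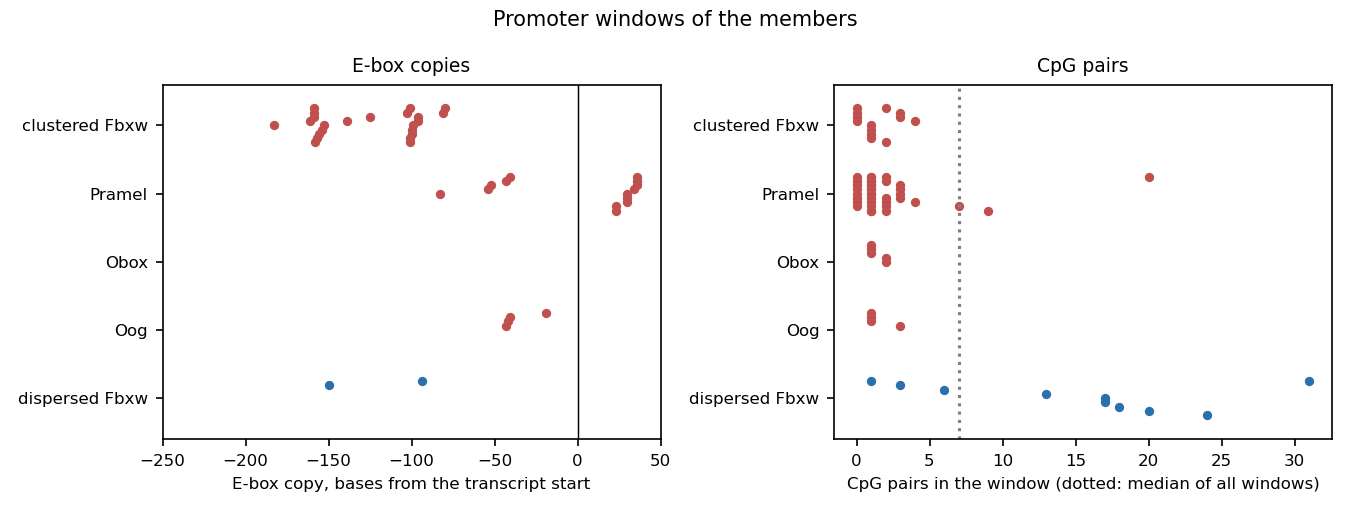
Promoter windows of the 128 genes that had one, by family. Left, the distance of each CAGCTG copy from the transcript start in bases (negative is before the start); right, the number of CpG pairs in each window, with the median of all windows, 7, as a dotted line. Clustered Fbxw copies sit between 183 and 80 bases before the start, and dispersed Fbxw windows reach 31 CpG pairs.

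Levels are log2 intensities minus the array's 75th percentile, so that 0 is that percentile, and they are compared between arrays and not between probes. On the wildtype arrays 33734 to 34145 probes were well above background, and on the neoplasia arrays 29327 to 32920. Of 25215 features tested, 13.5% were lower and 16.8% higher in the neoplasia (limma, Benjamini-Hochberg adjusted p under 0.05), 30.3% in either direction, and the median difference was 0.13. The balance depends on the scaling: 3409 features were lower and 4243 higher in the values used here, 2993 and 5879 with normexp, 5916 and 1498 in the authors' deposited values, and 4152 and 745 with spike-in scaling, where the median of all features was 0.21, -0.35 and -0.47. The Pgr probe A_51_P213476 was well above background on all 5 neoplasia arrays, at 3.12 to 4.88, and on 2 of 3 wildtype arrays, where it lay at -7.22 to -4.19, while probe A_55_P2095663 was so on all 3 wildtype arrays and on no neoplasia array. The wildtype tissue carried the markers of a whole ovary: 23 of 24 oocyte genes, 8 of 8 granulosa genes and 7 of 7 theca and luteal genes were above background on all 3 wildtype arrays.

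Oocyte-cluster genes of all 4 families were measured in wildtype ovary and mostly lost to background in the neoplasia. Clustered Fbxw probes were all above background on every wildtype array, 14 of 14, and on 1 to 5 of the 14 in each neoplasia. Obox probes went from 5 of 8 on each wildtype array to 0 or 1, and Oog probes from 3 of 3 to 1. Pramel probes went from 21, 22 and 24 of 44 on wildtype 1 to 3 to 4 on each of neoplasia 1 to 4 and 14 on neoplasia 5. All 13 probes of the dispersed Fbxw genes were above background on all 8 arrays. In RNA of whole tissue, fewer oocytes and less RNA per oocyte cannot be told apart.

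**Figure D2:**
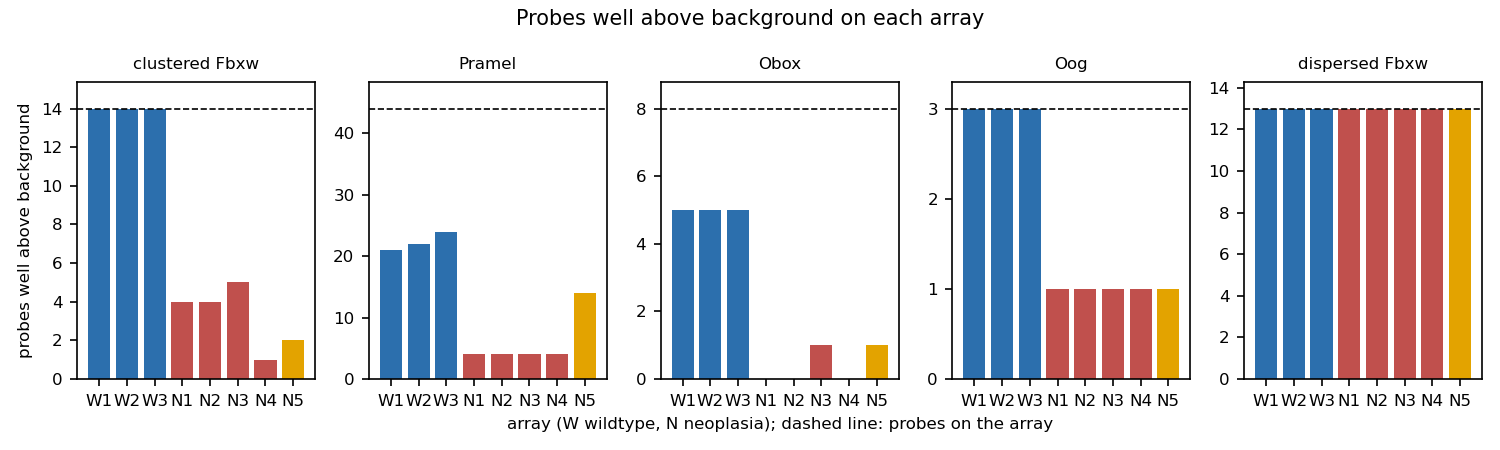
Number of probes well above background on each array, for the 4 clustered families and the dispersed Fbxw genes; the dashed line is the number of probes on the array. Every clustered family has fewer on each neoplasia array than on any wildtype array, and neoplasia 5 has 14 Pramel probes where the other neoplasias have 4.

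Of the 48 cluster members, 34 were tested because a probe was above background on at least 3 arrays. Of these, 28 passed the threshold as lower in the neoplasia and 0 as higher, beside 13.5% lower among all features, and every wildtype array lay above every neoplasia array for 29 of the 34, beside 16.1% of all features. These counts come from the contrast on which the families were selected, and 16 of the members passed the filter through the wildtype arrays alone. Members above background on 1 neoplasia array also needed the wildtype arrays to pass it. Nothing is therefore read from these counts. Without the filter on dim probes all 48 were tested and 28 were lower, beside 8.58% of 37208 features. The median difference was -4.52 over the 34 tested members and -2.94 over all 48. For the 16 members above background on all wildtype arrays and on no neoplasia array, only a bound can be given, from the wildtype mean and, on each neoplasia array, the lowest signal called above background or the probe's own value where that is higher. With these 16 at their bound, the median was -3.02. Members above background on only some neoplasia arrays kept their fitted difference, here and in the medians with bounds below. These medians are therefore no bound over all members.

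Among the clustered Fbxw genes, presumed substrate receptors by their domains, 11 of 12 were lower and Fbxw13 did not pass. The median difference was -5.37, or -3.99 with 7 genes at their bound. Fbxw15 lay at 1.02, 1.34 and 1.49 on wildtype 1 to 3 and at -5.25, -4.85, -5.73, -6.31 and -6.27 on neoplasia 1 to 5. It was above background on no neoplasia array and at least 66.1-fold lower there. Fbxw14, whose promoter is printed beside that of Fbxw15, lay at 0.54, 0.67 and 0.83 in the wildtype and at -6.73, -6.04, -5.81, -6.59 and -6.39 in the neoplasia. It was at least 45.1-fold lower, and the groups of these 2 genes were far apart.

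Fbxw18 lay at -0.38, -0.22 and 0.15 in the wildtype and at -6.94, -7.23, -5.29, -6.84 and -6.53 in the neoplasia, at least 25.3-fold lower. Fbxw20, with the single CAGCTG copy, lay at -0.56, -0.36 and -0.06 in the wildtype and at -6.91, -7.23, -4.83, -6.61 and -5.82 in the neoplasia, where only neoplasia 3 was above background. Fbxw27 lay at 1.14, 1.35 and 1.62 in the wildtype and at -3.25, -3.84, -4.57, -5.64 and -4.39 in the neoplasia, a difference of -5.71 ± 0.48 (SE). It was still above background on neoplasia 1 to 3. Of the remaining genes, Fbxw19, Fbxw26, Fbxw16 and Fbxw24 were above background on no neoplasia array and were 7.35-fold to 18.1-fold lower at the least.

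Fbxw22, Fbxw21 and Fbxw13, like Fbxw27, stayed above background in 3 or more of the neoplasias. Fbxw22 lay at -0.74, -0.71 and -0.36 in the wildtype and at -3.87, -4.58, -4.67, -4.54 and -4.40 in the neoplasia, above background on neoplasia 1 to 3. Fbxw21 lay at -0.24, -0.20 and 0.26 in the wildtype and at -2.94, -3.32, -2.50, -3.02 and -3.46 in the neoplasia, above background on all 8 arrays. Fbxw13 lay at -2.10, -2.18 and -2.07 in the wildtype and at -2.37, -3.56, -2.37, -4.80 and -3.10 in the neoplasia. Its wildtype values were close together and above all of its neoplasia values, which were wide and above background on all but neoplasia 4, and the difference was -1.12 ± 0.53 (SE).

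**Figure D3:**
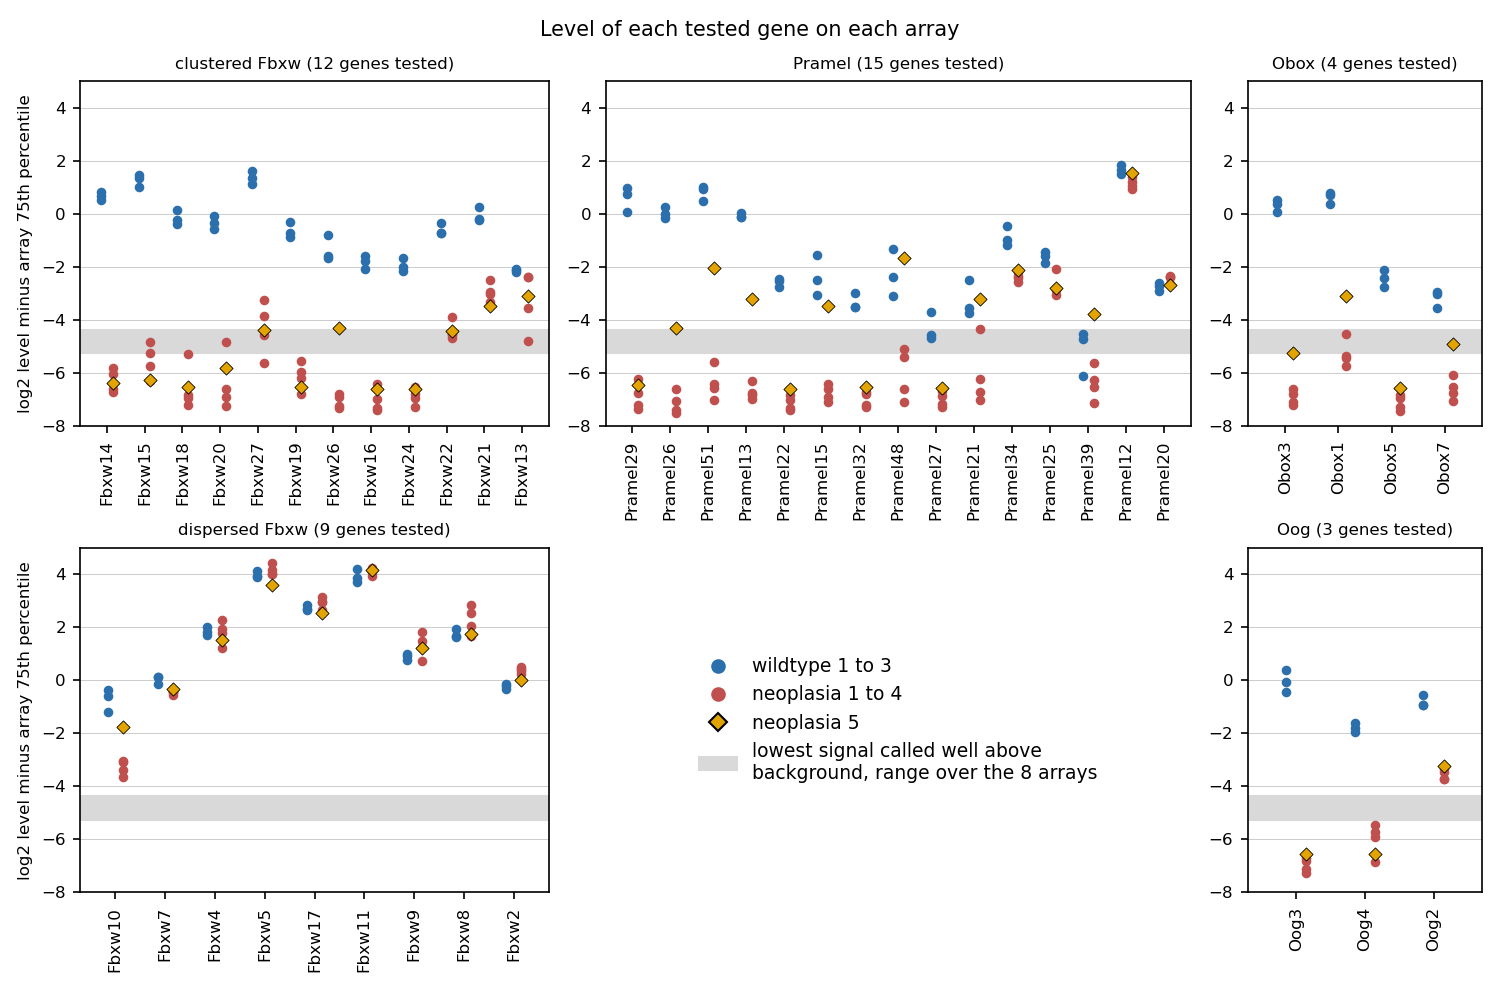
Level of each of the 43 tested genes on each array, as log2 intensity minus the array's 75th percentile, with genes ordered within a family by their difference. Points are arrays (3 wildtype, neoplasia 1 to 4, and neoplasia 5 as a diamond), and the grey band is the lowest signal called well above background, -5.25 to -4.36 over the 8 arrays. Most neoplasia points of the clustered families lie in or under the band, and those of the dispersed Fbxw genes lie above it.

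All 4 tested Obox genes, which encode homeobox factors, were lower, with a median difference of -5.02, or -3.76 with 3 genes at their bound. Obox3 lay at 0.08, 0.36 and 0.53 in the wildtype and at -6.79, -7.10, -7.23, -6.62 and -5.24 in the neoplasia, at least 35.2-fold lower. For Obox1, whose 2 probes were both bright in the wildtype, probe A_55_P2034207 lay at 1.35, 1.59 and 1.72 in the wildtype and at -6.81, -6.56, -3.78, -6.66 and -6.40 in the neoplasia. Its other probe lay at 0.38, 0.72 and 0.77, and at -5.44, -5.36, -5.75, -4.52 and -3.11. The first was above background on neoplasia 3 alone and the second on neoplasia 5 alone, so the array that stood out depended on the probe. Obox5 was at least 5.21-fold and Obox7 at least 3.13-fold lower. Obox6 was above background on no array.

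Oog genes, the oogenesins, were lower in all 3 cases, with a median difference of -4.32, or -3.03 with 2 genes at their bound. Oog3 lay at -0.44, -0.04 and 0.41 in the wildtype and at -6.80, -7.12, -7.26, -6.70 and -6.54 in the neoplasia, at least 27.7-fold lower. Oog4 lay at -1.94, -1.80 and -1.60 and at -5.89, -6.86, -5.72, -5.45 and -6.56, at least 8.19-fold lower. Oog2 differed from them in that it stayed above background on all 8 arrays. It lay at -0.95, -0.94 and -0.54 in the wildtype and at -3.44, -3.70, -3.33, -3.70 and -3.24 in the neoplasia, a difference of -2.67 ± 0.20 (SE) with no overlap of the groups.

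Pramel genes were the most mixed family. Of 28 genes on the array, 12 were above background on no array: Pramel3, Pramel4, Pramel5, Pramel6, Pramel7, Pramel14, Pramel16, Pramel17, Pramel19, Pramel30, Pramel31 and Pramel37. Pramel6 and Pramel7 are known from mouse embryonic stem cells, and the name of an oocyte cluster does not describe these 12 in this tissue. Of the 15 tested, 10 were lower and 5 did not pass, with a median difference of -2.90, or -2.23 with 4 genes at their bound. Pramel29 lay at 0.06, 0.74 and 0.97 in the wildtype and at -6.24, -7.22, -7.36, -6.77 and -6.47 in the neoplasia, at least 42.4-fold lower. Pramel22, Pramel32 and Pramel27 were likewise above background on no neoplasia array, and their bounds were 4.68-fold, 2.78-fold and 1.42-fold.

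Neoplasia 5 kept a signal of several Pramel genes that neoplasia 1 to 4 did not. Pramel51 lay at 0.48, 1.03 and 0.93 in the wildtype, at -6.43, -7.03, -5.58 and -6.57 on neoplasia 1 to 4 and at -2.03 on neoplasia 5. Pramel13 lay at -0.10, -0.13 and 0.04 in the wildtype, at -6.85, -6.97, -6.76 and -6.31 on neoplasia 1 to 4 and at -3.22 on neoplasia 5. Pramel26 lay at -0.01, -0.15 and 0.27, at -7.05, -7.39, -7.52 and -6.62, and at -4.32. On these probes of the 3 genes neoplasia 5 lay between the other neoplasias and the wildtype. The other probe of Pramel51 did the same, at -4.05 on neoplasia 5. The other probe of Pramel26 did not. It lay at -0.42, -0.61 and -0.38 in the wildtype and at -6.57 on neoplasia 5, above background on no neoplasia array.

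Of the 4 probes of Pramel48, the probe that stood for the gene reached the wildtype range on neoplasia 5. It lay at -2.37, -3.11 and -1.34 in the wildtype, at -6.63, -5.38, -7.09 and -5.10 on neoplasia 1 to 4 and at -1.65 on neoplasia 5. Another probe of Pramel48 was above background on neoplasia 5, at -3.52, and the differences of its 4 probes ran from -2.90 to -0.89. Pramel21 also reached the wildtype range on neoplasia 5, at -2.48, -3.56 and -3.74, at -6.74, -7.03, -6.22 and -4.34, and at -3.20. Pramel15 lay at -1.54, -3.07 and -2.48, at -6.89, -7.11, -6.43 and -6.61, and at -3.48. Its other probe, above background on 1 wildtype array and no neoplasia array, lay at -6.43 on neoplasia 5. Pramel39, above background on 2 of 3 wildtype arrays and at -6.13, -4.72 and -4.52 there, lay at -5.64, -6.27, -7.14 and -6.54 on neoplasia 1 to 4 and was highest of all arrays on neoplasia 5, at -3.78. For Pramel48 and Pramel21 the groups overlapped through this array alone, and it was the only neoplasia array that measured them. Without it both passed the threshold as lower, with fitted differences that are no measured folds.

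The distance of neoplasia 5 was not shared by all families. Over the tested genes, its median difference from the wildtype mean was -1.25 for Pramel, against -3.67 for the mean of neoplasia 1 to 4. For the Obox genes the medians were -3.94 and -5.30, for the clustered Fbxw genes -5.14 and -5.59, and for the Oog genes -4.78 and -4.20. Neoplasia 5 was the highest neoplasia array for 12 of 15 Pramel, 4 of 4 Obox, 2 of 3 Oog and 1 of 12 clustered Fbxw genes. These medians include genes not above background on the array. Of 24 oocyte markers on the array, 9 were above background on neoplasia 5 and 5, 11, 10 and 7 on neoplasia 1 to 4, and their part in its Pramel values was not tested. Neoplasia 5 lay in the second row of the slide with the 3 wildtype arrays, and neoplasia 1 to 4 made up the first row, so the row of the slide and this difference between neoplasias cannot be told apart. Within the second row, neoplasia 5 differed from the wildtype mean by a median of -3.94 for Obox and -4.78 for Oog genes. The dispersed Fbxw genes gave -0.19. With the slide row as a block, the fit compares neoplasia 5 alone with the wildtype. Its median was -3.57 for the 34 tested cluster members, beside 0.04 for all features. Without neoplasia 5, 30 of the 34 tested cluster members passed as lower, beside 4319 of 25215 features. The median was then -4.63, beside 0.16 for all features.

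Among the wildtype arrays, wildtype 3 was highest for 34 of the 41 cluster probes above background on all 3 of them. The SD over the 3 wildtype arrays had a median of 0.25 for clustered Fbxw, 0.29 for Pramel, 0.23 for Obox and 0.23 for Oog probes, which is small beside the differences above. The summed levels of the dispersed Fbxw genes, the ligase genes and every marker list were also highest on wildtype 3 among the wildtype arrays.

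Pramel12 and Pramel20 differed least among the tested Pramel genes. Pramel12 lay at 1.52, 1.66 and 1.84 in the wildtype and at 1.05, 1.22, 1.39, 0.95 and 1.55 in the neoplasia, a difference of -0.44 ± 0.20 (SE). Pramel20 lay at -2.70, -2.93 and -2.61 and at -2.34, -2.64, -2.39, -2.38 and -2.70, a difference of 0.26 ± 0.18 (SE) that turned to -0.34 with spike-in scaling and -0.21 in the authors' values. In both the groups overlapped, and both were above background on all 8 arrays. Pramel12 passed the threshold as lower after quantile normalization, and also in the authors' values.

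Probes of 1 gene could disagree strongly. For Pramel25, probe A_52_P175679 lay at -1.85, -1.60 and -1.45 in the wildtype and at -2.09, -2.80, -3.05, -2.87 and -2.79 in the neoplasia, a difference of -1.09. Its probe A_55_P2135865 lay at -0.38, 0.19 and 0.39 and at -7.02, -7.35, -7.44, -6.84 and -6.64, above background on no neoplasia array and at least 29.5-fold lower there. For Pramel34 the level was -0.998, -1.15 and -0.47 in the wildtype and -2.34, -2.57, -2.43, -2.18 and -2.13 in the neoplasia on 1 probe, a difference of -1.46. The other probe was above background on all 3 wildtype arrays and, among the neoplasias, on neoplasia 5 alone, at -3.32. Its difference therefore has no measured size. The probe that stood for Fbxw21 gave -2.99, and its other probe, above background on no neoplasia array, was at least 11.1-fold lower. In each of these 3 genes the probe with the smaller difference was above background on all 8 arrays, and it was the brighter one over all arrays, so it stood for the gene in the counts. Which of the 2 probes follows the gene named for it was not tested.

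Probes with opposite signs were those that measured little. Obox3 had 2 further probes, above background on no array, with differences of 0.38 and 0.89. Pramel24 had 3 probes, of which 1 was above background on 1 wildtype array, with differences of -0.82, 0.43 and 0.46. For Pramel39 they were -0.75 and 0.14, with the second above background on no array. The 21 cluster probes above background on no array had positive differences throughout, up to 0.89. The 75th percentile to which levels are set was an intensity of 309 to 429 on the neoplasia arrays and 462 to 515 on the wildtype arrays.

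**Figure D4:**
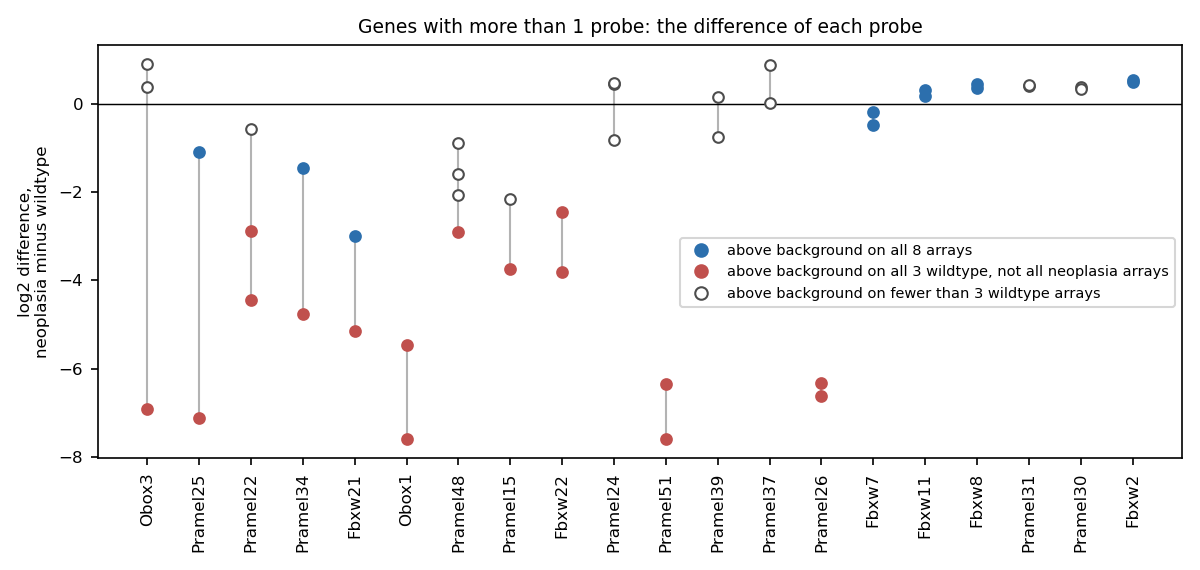
Log2 difference, neoplasia minus wildtype, of each probe of the 20 genes with more than 1 probe, ordered by the distance between probes. Filled points were above background on all 3 wildtype arrays (blue on all neoplasia arrays too), open points on fewer. Obox3 spans -6.92 to 0.89 and Pramel25 -7.12 to -1.09, where the lower end is no measured fold since no neoplasia array was above background, while the probes of Fbxw7, Fbxw11, Fbxw8 and Fbxw2 lie within 0.28 of each other.

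Dispersed Fbxw genes were above background on all arrays, and Fbxw10 alone of the 9 passed the threshold. With 1 lower and 0 higher, read beside 30.3% of all features in either direction, their median difference was 0.12, beside 0.13 for all features. That median turned to -0.35 after quantile normalization and in the authors' values, -0.19 with slide row as a block and -0.48 when scaled to spike-ins. Fbxw11, known as beta-TrCP2 and a receptor for beta-catenin and the NF-kappaB inhibitor, lay at 3.89, 3.72 and 4.22 in the wildtype and at 4.25, 4.09, 3.95, 4.14 and 4.15 in the neoplasia. Its difference was 0.17 ± 0.18 (SE) and turned below 0 under the 3 other scalings, to -0.43 with spike-ins. Fbxw7, the receptor for cyclin E, Myc and Notch, lay at 0.15, -0.13 and 0.15 and at -0.38, -0.42, -0.44, -0.57 and -0.32. All its wildtype values were above its neoplasia values, and the difference of -0.48 ± 0.17 (SE) did not pass. Fbxw7 did pass with normexp, quantile normalization, array weights and the authors' values (-0.95), and it was at -1.08 with spike-in scaling, where it did not.

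Fbxw2 lay at -0.22, -0.33 and -0.13 in the wildtype and at 0.49, 0.42, 0.23, 0.34 and 0.00 in the neoplasia, each above the wildtype, and its difference of 0.52 ± 0.18 (SE) turned to -0.08 with spike-in scaling. Without neoplasia 5, both Fbxw2 and Fbxw7 passed the threshold. Fbxw8, which pairs with CUL7 in an SCF-like ligase, differed by 0.44 ± 0.30 (SE), and Fbxw9 by 0.41 ± 0.26 (SE), and their signs turned with spike-in scaling and in the authors' values. Fbxw4 (-0.10 ± 0.26, SE), Fbxw5 (0.06 ± 0.22, SE) and Fbxw17 (0.12 ± 0.20, SE) differed by less than their error, and those of Fbxw5 and Fbxw17 turned below 0 under the 3 other scalings (spike-in, the authors' values, quantile). Fbxw10 lay at -0.59, -0.35 and -1.21 in the wildtype and at -3.05, -3.65, -3.37, -3.07 and -1.75 in the neoplasia, lower by 2.26 ± 0.43 (SE) on the log2 scale with no overlap. It did not pass with slide row as a block, where its difference was -1.04.

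**Figure D5:**
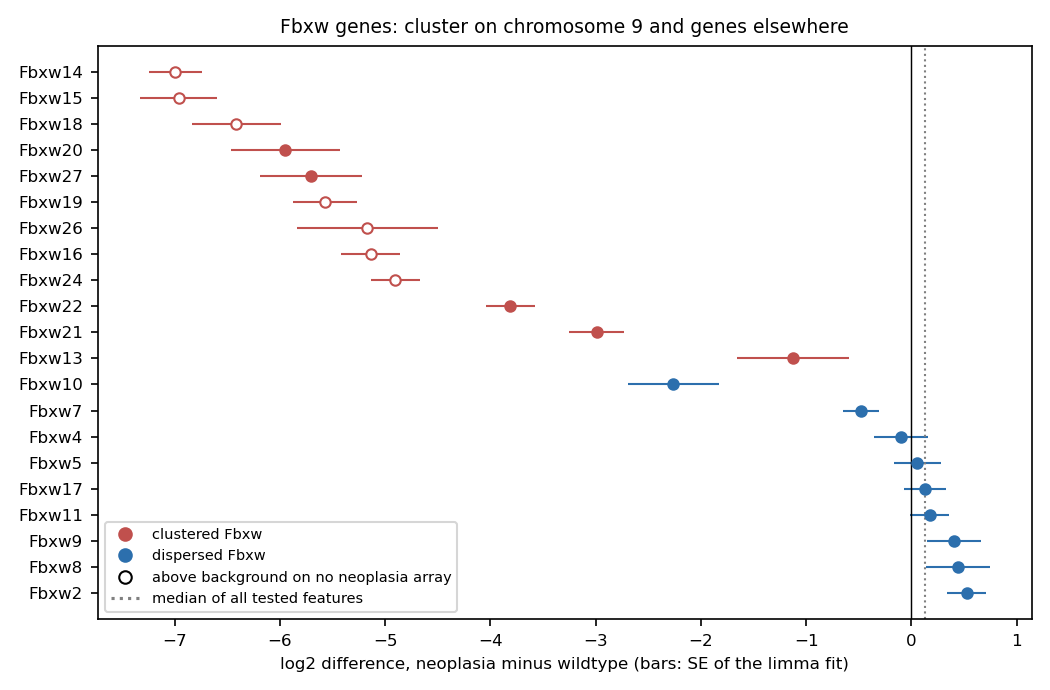
Log2 difference, neoplasia minus wildtype, of the 12 clustered and 9 dispersed Fbxw genes, with the SE of the limma fit as bars. Open points were above background on no neoplasia array, so their position is not a measured fold; the dotted line is the median of all tested features, 0.13. The dispersed genes lie from -2.26 to 0.52, with signs of the small differences that turn with the scaling, and the clustered genes from -6.99 to -1.12.

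With the values used here, the ligase parts with which such receptors work passed the threshold no more often than all features did. This did not hold in every setting. Of 25 tested genes of the SCF and CUL2 ligases and their regulators, 2 were lower and 3 higher (limma adjusted p under 0.05), beside 13.5% and 16.8% of all features, with a median difference of 0.38, beside 0.13 for all features. Cand2, a CAND exchange factor of cullin ligases, fell by 2.93 ± 0.62 (SE) on the log2 scale (limma adjusted p = 0.0118), from -0.37, -0.65 and -0.31 to -1.69, -3.89, -4.23, -4.45 and -2.60. Cul7, the cullin partner of Fbxw8, fell by 1.06 ± 0.27 (limma adjusted p = 0.0212). Cdc34, an E2 enzyme of SCF ligases, rose by 1.26 ± 0.38 (limma adjusted p = 0.0371). The other 2, Elob and Cul1, rose by 0.94 ± 0.22 and 0.86 ± 0.26 and are named after their values were seen. The count is unsteady: it was 0, 1 and 1 without wildtype 1, 2 and 3, beside 2827, 3209 and 4037 of 25215 features. Without neoplasia 4 it was 3, beside 5469 features. Without neoplasia 5 it was 11, beside 9981 features, and with array weights 15, beside 12963. In these last 2 settings the ligase share was above that of all features. In the authors' values 5 of the 25 were lower and 0 higher, and with spike-in scaling 2 and 0, so the rise of Cdc34, Elob and Cul1 passed the test only under some scalings.

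Genes of other names beside the clusters are read against the 13.5% lower and 16.8% higher of all features, and their shares, taken over the 4 chromosomes, lie near these. For the largest run of members on each of 4 chromosomes, the 10 tested genes of other names on each side and any inside the run were read, in the gene order of GRCm38.p6. They were told from members by symbol alone. Whether genes under provisional names, such as AA792892 and E330014E10Rik, belong to these families was not checked. Beside the Fbxw run on chromosome 9, 3 of 20 genes were lower and 4 higher, with a median difference of 0.34. Beside the Pramel and Oog run on chromosome 4, 2 of 20 were lower and 1 higher (median -0.32), and beside the Obox run on chromosome 7, 1 of 20 was lower and 5 higher (median 0.25). On chromosome 5, 5 of 21 were lower and 3 higher (median 0.19). Named after their values were seen, AA792892, which lies inside the Pramel run on chromosome 5, was at least 3.28-fold lower (limma adjusted p = 7.74e-05). E330014E10Rik, beside that run and also named after its values were seen, passed as lower (limma adjusted p = 0.000282). It was above background on 1 neoplasia array only, which leaves its fall without a measured size.

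Most markers of oocytes and of other ovarian cells were also lower in the neoplasia. Of 23 tested oocyte markers, 20 were lower and 0 higher (limma adjusted p under 0.05), beside 13.5% and 16.8% of all features. Their summed linear level was 68.9 to 87.4 times the 75th percentile in the wildtype and 12.3 to 37.9 times in the neoplasia. Above background on no neoplasia array were 11 of the oocyte markers, namely Zp1, Zp2, Bmp15, Figla, Nobox, Lhx8, Padi6, Zar1, Dppa3, Dazl and Tdrd5. These passed the filter through the wildtype arrays alone, and Oosp1, Ddx4 and Sohlh1 would not have passed it without them. Nothing is therefore read from the count of lower markers. Padi6, of the subcortical maternal complex, was at least 219.7-fold lower (limma adjusted p = 4.59e-06), and Tdrd5 and Zar1 at least 149-fold and 106-fold. Named after their values were seen, the 3 oocyte markers that did not pass were Tle6, Kit and Uchl1, with differences of -0.48 ± 0.50, 0.06 ± 0.33 and 0.46 ± 0.40 (SE). They were above background on all 8 arrays, and their levels are part of the sums, with Tle6 at 5.02 on neoplasia 2, the array with the highest sum among the neoplasias. The median difference of the oocyte markers was -5.45, or -3.86 with these 11 at their bound, beside 0.13 for all features. The summed level of the 34 cluster members was 23.5 to 31.8 in the wildtype and 3.14 to 5.24 in the neoplasia. Pramel12, which did not pass and lay at 0.95 to 1.55 in the neoplasia, had the largest part in this sum on each neoplasia array.

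The counts that follow stand beside 13.5% lower among all features. Through the wildtype arrays alone, 3 granulosa, 2 theca and luteal and 1 of the 2-cell genes passed the filter. Hsd17b1 and the 2-cell gene Usp17ld would not have passed it without them. Nothing is therefore read from these counts. Of 8 granulosa genes 6 were lower (median difference -6.15, or -4.89 with bounds), with a summed level of 153 to 214 against 42.7 to 72.4. Inha, the inhibin alpha subunit, differed by -9.36 and was above background on 4 neoplasia arrays, Hsd17b1 was so on 1 only, which leaves its fall without a measured size, and Fshr, the receptor of follicle-stimulating hormone, was at least 33.3-fold lower. The other 2, named after their values were seen, were Foxl2, at 4.88 to 5.13 in the wildtype and 5.20 to 5.65 in the neoplasia, and Nr5a2, with a difference of -3.02 ± 1.58 (SE). Foxl2 had the largest part in the granulosa sum on each neoplasia array. The sum also holds Nr5a2, at 5.15 on neoplasia 2, and Inhba, at 4.43 on neoplasia 5. Of 7 theca and luteal genes 6 were lower (median -6.91), among them Ptgfr and Lhcgr at least 221-fold and 120.1-fold and Hsd3b1 by -7.90, and Cyp17a1 did not pass at 0.30 ± 0.33 (SE), with a summed level of 378 to 669 against 41.6 to 126. Named after its values were seen, Cyp11a1, at 4.89 to 6.84 in the neoplasia, had the largest part in that sum on each neoplasia array. Of 13 genes of the 2-cell embryo on the array only 4 were tested (median -0.21) and 1, Tcstv1, was lower, at least 3.03-fold (limma adjusted p = 0.000697). The part of these cell types in the values of the cluster members was not tested.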

How the data were processed

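Total RNA of 3 wildtype ovaries and 5 ovarian neoplasms was labelled with Cy3 and hybridised to 1-colour Agilent arrays on 1 slide. Per the file headers, the authors' scanner output came from Agilent Feature Extraction 11.0.1.1 with an mm9 grid and gives each spot's linear, background-subtracted intensity. A table of log2 values was also deposited by the authors, and 28364 of its 37932 rows matched log2 of the processed intensity within 0.01 on all 8 arrays, so it was not scaled between arrays. Partek appears in the submitters' processing notes with no stated use.

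The values used were log2 of the processed intensity minus each array's 75th percentile, without control and outlier-flagged spots, and spots of 1 probe were averaged. Unversioned accessions found a symbol in RefSeq's GRCm38.p6 table for 26582 of 55681 probes (47.7%). The filter kept probes called well above background on 3 or more arrays, the brightest probe over all arrays stood for a gene, and limma 3.58.1 in R 4.3.3 compared the groups (two-sided, Benjamini-Hochberg over 25215 features, 6 residual degrees of freedom). The fit was tested on simulated data. A fold written "at least" sets the wildtype mean against the higher, per neoplasia array, of 2 values, the lowest signal called above background and that of the probe. No label says that arrays came from separate animals, so the p-values take in only how these samples vary, which may be technical, and the number of arrays limits the precision. Promoter windows are from RefSeq (GRCm38.p6) and were aligned with Biopython 1.88.

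Members and lists were chosen with earlier results of these data known. Named are every dispersed Fbxw gene, in each clustered family up to 4 genes with the largest difference among those above background on all wildtype arrays, every member above background on any neoplasia array, genes whose probes differ in sign, and up to 3 past the threshold of each other list. The alternatives were quantile normalization, normexp (offset 50), no filter and a filter on all 8 arrays, the authors' values, the mean over probes, trend with robust, array weights, the replicate block, a threshold of 0.01, and leaving out each array. Spike-in scaling, slide row as a block and the unfiltered fit without neoplasia 5 were chosen after seeing the data. The files have no mean foreground, so normexp used the median foreground intensity.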

Additional observations from a re-analysis of the deposited data

Results flagged for a closer look

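For each of the 43 tested genes the 5 neoplasia arrays were examined for 1 array that stands apart, by its gap to the next array as a share of the whole range. In 6 genes 1 array did, 14.0% of those examined, and in 5 of these it was neoplasia 5. All genes were read on the same 5 arrays, so no chance rate is set beside this share. Pramel51 lay at -2.03 on neoplasia 5, with the others at -7.03 to -5.58. Pramel26 lay at -4.32, with the others at -7.52 to -6.62, Pramel15 at -3.48, with the others at -7.11 to -6.43, and Pramel13 at -3.22, with the others at -6.97 to -6.31. On their other probes, Pramel26 lay at -6.57 and Pramel15 at -6.43 on neoplasia 5, not above background. Fbxw26 lay at -4.32 on neoplasia 5, with the others at -7.34 to -6.80, and was not above background there. Pramel25 was the exception, with neoplasia 1 high at -2.09 and the others at -3.05 to -2.79. The number of Pramel probes above background was 14 on neoplasia 5 and 4 on each other neoplasia. What sets neoplasia 5 apart was not tested, and its place on the slide goes with it.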

How the results depend on the processing

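The median difference of the cluster members was below 0 under every setting run, and its size moved most with the treatment of dim probes. Median differences of the cluster members were -1.55 with normexp, -2.94 without the filter, -3.17 without the filter and neoplasia 5, and -1.27 with a filter on all 8 arrays, which keeps 6 members, of which 4 were lower, and 5 oocyte markers, of which 2 were lower. Leaving out 1 array gave 27 to 30 cluster members lower (median -4.63 to -4.42), 20 to 20 oocyte markers lower, 1 to 3 dispersed Fbxw genes changed (median 0.05 to 0.19), 0 to 11 ligase genes changed and 2827 to 9981 features changed. Dispersed Fbxw genes changed numbered 3 with normexp, quantile normalization and array weights, 2 in the authors' values and without the filter and neoplasia 5, and 0 with slide row as a block. Their median was -0.35 both in the authors' values and after quantile normalization, -0.19 with slide row as a block and -0.48 when scaled to spike-ins. Ligase genes changed numbered 8 with normexp, 3 without the filter, 15 with array weights, 2 with spike-in scaling, and 0 at a threshold of 0.01 and with slide row as a block. Features changed numbered 12963 with array weights, 2561 at 0.01, 1541 with slide row as a block (the comparison is then neoplasia 5 against wildtype) and 4897 with spike-in scaling. With the replicate block, 29 cluster members were lower, 2 ligase genes and 4686 features changed, Pramel25 was lost and Pramel21 and Pramel48 were gained. The numbers do not pair the arrays: deviations of same-numbered arrays correlated at -0.054, -0.031 and -0.0015. Of the named members, Pramel25 lost its call in 5 settings, Pramel15 in 3, and Pramel27, Fbxw10, Obox7 and Pramel34 in 1 each. The cause was not tested. Signal near background limits every fold of a member lost in the neoplasia.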

Other observations

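The 23 protein-coding members with no probe reached through a RefSeq accession were not analysed here. They are 18 Pramel genes, 3 clustered Fbxw genes (Fbxw23, Fbxw25 and Fbxw28), Obox2 and Oog1.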
